A study of Mus musculus with 2 samples.

Results

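The replication-dependent histone genes of the mouse were taken as the protein-coding genes of GENCODE M21 whose symbol starts with Hist1h, Hist2h, Hist3h or Hist4h. The rule found 67 genes of 21938 protein-coding genes on the chromosomes: 6 of H1, 18 of H2A, 18 of H2B, 12 of H3 and 13 of H4. Of these, 54 lay in the Hist1 cluster on chromosome 13, 10 in Hist2 on chromosome 3, 2 in Hist3 on chromosome 11 and 1, Hist4h4, on chromosome 6. Chromatin accessibility had been measured by DNase-seq, which sequences the places where DNase I cuts nuclear DNA, in whole thymus of male B6CASTF1/J mice (the F1 hybrid of the C57BL/6J and CAST/EiJ strains) aged 2 months. There was 1 group of 2 replicates and no treatment, so each value is given for both replicates and no test between groups was possible. The labels number a separate animal for each replicate but give both the same donor identifier.

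Replication-dependent histone genes supply the core histones H2A, H2B, H3 and H4, and the linker histone H1, that package newly copied DNA in S phase. They are short, mostly without introns, and lie in clusters, where many H2A and H2B genes stand head to head and share the DNA between them as a promoter. Their messages end in a conserved stem-loop instead of a poly(A) tail. Known promoter elements differ by type: octamer words (bound by Oct-1) in H2B promoters, the AC box in H1 promoters, site II (bound by HINFP) in H4 promoters, and CCAAT and TATA boxes in several types. The thymus holds many dividing thymocytes.

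A gene was called open where a peak of the authors' stricter peak list had a base no more than 1000 bp from any of its annotated transcript starts (TSSs) in both replicates, and its score is the highest signal value of such a peak. The unit of the signal is not given in the sources used here, so scores rank peaks and are not counts. The strict lists held 63832 peaks in replicate 1 and 67929 in replicate 2, and depth in reads was not stated. In whole tissue, a weak peak in many cells and a strong peak in few cells cannot be told apart. Of 12 thymocyte marker genes 12 were open, against 0 of 3 B cell, 1 of 5 thymic epithelial, 2 of 8 male germ cell and 0 of 3 hepatocyte markers.

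Sequences were read from the reference GRCm38.p6 (mm10), a C57BL/6J genome, and matches to the words named in this paragraph are in capitals. Matches to the other words counted further below are left in lower case. CAST/EiJ alleles are not shown. The words were searched on both strands. ATTTGCAT was used for the octamer and TATAAA for the TATA box. The CCAAT box was searched by its own letters, the AC box of H1 genes as AAACACA, and the core of site II as GGTCCG. The first set shows the core of site II in H4 promoters, because a footprint of both replicates lay over it in 12 of the 13 H4 genes. Each line holds 30 bases on the strand of the gene, with the word in the middle. The positions are chr13:23698487-23698516 for Hist1h4c (minus strand), chr13:23531027-23531056 for Hist1h4h (plus), chr13:21735004-21735033 for Hist1h4j (plus), chr13:21832226-21832255 for Hist1h4n (minus), chr3:96263362-96263391 for Hist2h4 (minus) and chr6:136804446-136804475 for Hist4h4 (minus).
Hist1h4c: agttttcaaccaGGTCCGcagaaggcctat
Hist1h4h: agtcttcaatcaGGTCCGaaaacactgcat
Hist1h4j: ggttctcatttcGGTCCGcccgctacagta
Hist1h4n: tgttttcactccGGTCCGcaagttccctat
Hist2h4: agttttcaatctGGTCCGatcctctcatat
Hist4h4: tgttttcaatcaGGTCCGctcccaggaaat

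The second set shows 3 of the 12 stretches that lie between head-to-head H2A and H2B start codons, to compare an open pair with closed ones. They are read on the strand of the H2B gene and leave out at least 59 bases next to each start codon. Hist2h2be/Hist2h2ac (chr3:96220904-96221106, plus strand) was open. Hist1h2ba/Hist1h2aa (chr13:23934216-23934402, minus strand), a testis-linked pair, and Hist1h2bq/Hist1h2ao (chr13:21810231-21810407, minus strand), which lies in a duplicated segment, were closed.
Hist2h2be/Hist2h2ac: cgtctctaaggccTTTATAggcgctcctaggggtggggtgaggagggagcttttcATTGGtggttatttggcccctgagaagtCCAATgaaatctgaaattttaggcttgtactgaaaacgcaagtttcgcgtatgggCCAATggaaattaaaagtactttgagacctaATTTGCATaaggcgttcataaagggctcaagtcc
Hist1h2ba/Hist1h2aa: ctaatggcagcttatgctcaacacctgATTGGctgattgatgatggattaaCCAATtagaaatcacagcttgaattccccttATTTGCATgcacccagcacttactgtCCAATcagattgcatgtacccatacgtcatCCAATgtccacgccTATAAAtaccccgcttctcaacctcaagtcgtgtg
Hist1h2bq/Hist1h2ao: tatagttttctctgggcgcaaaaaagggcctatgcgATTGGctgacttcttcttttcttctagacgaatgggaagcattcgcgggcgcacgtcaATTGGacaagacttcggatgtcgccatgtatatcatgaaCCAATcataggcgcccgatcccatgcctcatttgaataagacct
The testis-linked pair holds an octamer, a TATA box and CCAAT boxes although it had no peak. The stretch of Hist1h2bq/Hist1h2ao is the same in 177 of 177 bases as that of Hist1h2br/Hist1h2ap.

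The third set shows 150 bases, ending 60 bases before the start codon, of an open and a closed H1 gene: Hist1h1c (chr13:23738639-23738788, plus strand), the highest H1 gene, and Hist1h1t (chr13:23695656-23695805, plus strand), the testis H1, which was closed.
Hist1h1c: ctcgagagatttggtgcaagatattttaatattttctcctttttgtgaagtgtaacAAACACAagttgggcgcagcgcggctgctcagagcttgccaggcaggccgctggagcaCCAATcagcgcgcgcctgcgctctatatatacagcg
Hist1h1t: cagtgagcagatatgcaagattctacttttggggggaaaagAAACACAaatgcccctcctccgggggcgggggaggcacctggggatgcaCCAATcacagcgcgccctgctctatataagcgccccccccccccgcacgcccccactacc
Both carry the AC box followed by a CCAAT box in the same orientation.

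Most of the histone genes were open, and the H4 genes had the highest scores. Of the 67 genes, 56 (83.6%) were open in both replicates, against 59.0% of all protein-coding genes (12935 of 21938). Replicate 1 alone had 58 and replicate 2 alone 56. The median score of the 56 open genes was 5.83, below the median of 6.83 over all open protein-coding genes, and 9 of the 56 exceeded 10.7, the 75th percentile of open protein-coding genes. Of those 9 genes 7 were H4 genes. Replicate 1 had the higher score in 54 of the 56 genes, with a median log2 difference of -0.55 (replicate 2 minus replicate 1), against -0.37 over all open genes.

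**Figure D1:**
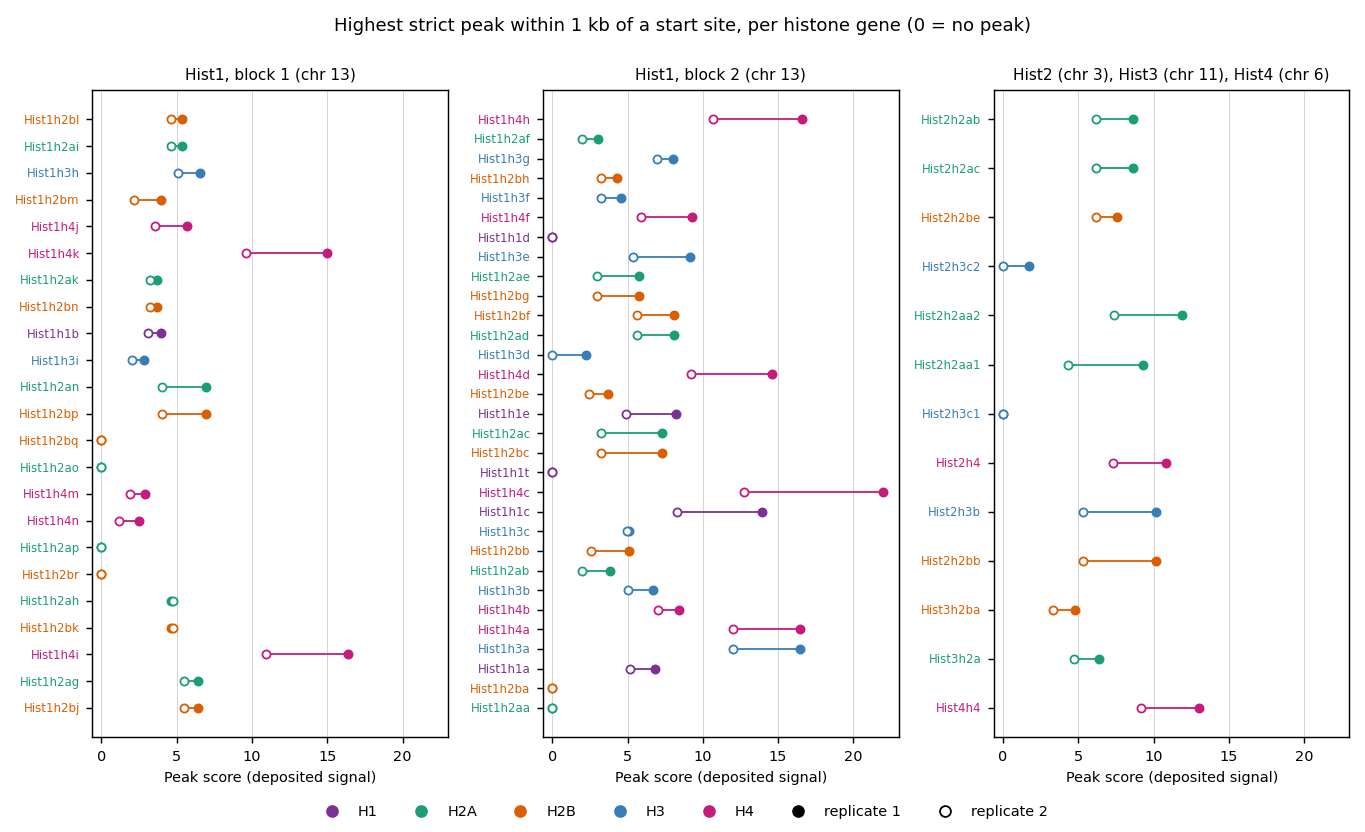
Peak score (x axis, the authors' signal value) of each of the 67 histone genes (y axis, in chromosomal order of their annotated start sites) in replicate 1 (filled) and replicate 2 (open symbols), coloured by histone type; 0 means no strict peak within 1000 bp. H4 genes hold most of the high scores, and 9 genes stand at 0 in both replicates.

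H4, which forms the centre of the nucleosome with H3, was the type in which every gene was open (13 of 13). The score of Hist1h4c was 22.0 in replicate 1 and 12.8 in replicate 2 (mean 17.4 ± 6.52, SD, n = 2), the highest of all 67 genes, in a peak at chr13:23698381-23698600 in both replicates. Hist1h4a had 16.4 and 11.98 (14.2 ± 3.15), in a peak just upstream of its TSS. These genes were high in both replicates, although replicate 1 exceeded replicate 2 in each.

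Hist4h4, alone on chromosome 6, had 13.01 in replicate 1 and 9.18 in replicate 2 (11.1 ± 2.71), and Hist2h4 had 10.9 and 7.28 (9.07 ± 2.52). At the other end were Hist1h4m, with 2.91 and 1.88 (2.40 ± 0.726), and Hist1h4n, with 2.50 and 1.17 (1.84 ± 0.945). The last 2 lie in the duplicated segment described below, where only 1.40% of the 36-base words in the 250 bases before the start codon occur once in the genome. All 13 H4 genes encode 1 and the same protein of 103 residues, so genes with the same product differed in mean score from 1.84 to 17.4.

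H1, the linker histone, was open in 4 of 6 genes. Hist1h1c had 13.9 in replicate 1 and 8.27 in replicate 2 (11.1 ± 3.99) and was the only H1 gene above that percentile. Hist1h1e had 8.20 and 4.90 (6.55 ± 2.33), Hist1h1a had 6.79 and 5.18 (5.99 ± 1.14), and Hist1h1b had 3.97 and 3.11 (3.54 ± 0.611). In each replicate these genes kept the same order, except that Hist1h1a and Hist1h1e changed places in replicate 2.

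H3 was open in 9 of 12 genes. The highest score was that of Hist1h3a, at 16.4 and 11.98, but the peak is the one upstream of Hist1h4a, whose distance to the Hist1h3a TSS is just within the window. Counting only peaks from 300 bp before to 100 bp after the start codon, Hist1h3a had 2.79 in replicate 1 and 2.60 in replicate 2. Hist2h3b likewise shared the peak of Hist2h2bb (10.1 and 5.34) and had 5.79 and 3.63 at its own start codon. Of peaks at their own start codon, the highest H3 genes were Hist1h3g, with 8.05 and 6.96 (7.51 ± 0.769), and Hist1h3e, with 9.14 and 5.35 (7.24 ± 2.68). By the score within 1000 bp of the TSS, the lowest open H3 genes were Hist1h3i, with 2.83 and 2.04 (2.44 ± 0.557), and Hist1h3f, with 4.59 and 3.21 (3.90 ± 0.969).

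H2A was open in 15 of 18 genes, with a median open score of 5.48. The highest were Hist2 genes, first Hist2h2aa2, with 11.9 in replicate 1 and 7.35 in replicate 2 (9.62 ± 3.20). Only 16.7% of the 36-base words in the 250 bases before its start codon occur once in the genome. It shares 79.8% of the words within 250 bp of its TSS with Hist2h2aa1. The aligner's rule for such reads is not given. The score of Hist2h2aa2 may therefore include reads from that copy, and its rank is uncertain. Hist2h2ab and Hist2h2ac followed. They lie close together and both took 8.62 in replicate 1 from the peak at Hist2h2ab. In replicate 2 both took 6.17 from another peak, at Hist2h2ac. At its own start codon Hist2h2ab had 8.62 and 3.34, and Hist2h2ac had 7.59 and 6.17. In Hist1 the highest were Hist1h2ad, with 8.08 and 5.62, and Hist1h2ag, with 6.38 and 5.50. The lowest open ones were Hist1h2af, with 3.06 and 1.97 (2.51 ± 0.771), and Hist1h2ab, with 3.84 and 1.94 (2.89 ± 1.34). Hist3h2a had 6.36 and 4.75 (5.55 ± 1.14). Hist2h2aa1 had 9.30 and 4.31, a log2 difference of -1.11, among the 5 largest differences between replicates. The others were -1.17 for Hist1h2ac and Hist1h2bc, which share a peak at 7.31 and 3.25, -1.10 for Hist1h4n and -0.98 for Hist1h2ab.

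H2B was also open in 15 of 18 genes and had the lowest median open score of the types, 4.67. The highest were Hist2h2bb, with 10.1 and 5.34 (7.74 ± 3.39), and Hist2h2be, with 7.59 and 6.17 (6.88 ± 1.01). In Hist1 they were Hist1h2bf, with 8.08 and 5.62, and Hist1h2bj, with 6.38 and 5.50, which are the partners of the 2 highest H2A genes there. The lowest open ones were Hist1h2be, with 3.72 and 2.42, and Hist1h2bm, with 3.99 and 2.16. The annotated TSS of Hist1h2be lies 35122 bp from its start codon, and at the start codon it had 5.39 and 2.83. Hist3h2ba had 4.79 and 3.31 (4.05 ± 1.05).

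**Figure D2:**
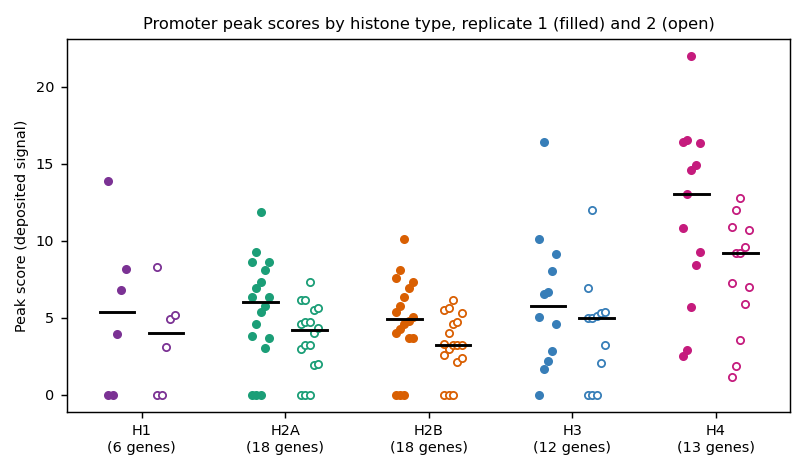
Peak score (y axis) of the histone genes by type (x axis), replicate 1 filled and replicate 2 open; each point is a gene, genes without a peak stand at 0, and bars are medians over all genes of the type. The H4 bar is at 13.01 and 9.18, above the bars of the other 4 types in the same replicate.

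In both replicates the median over open genes was highest for H4. It was 13.01 in replicate 1 and 9.18 in replicate 2 for H4, 7.50 and 5.04 for H1, 6.68 and 5.09 for H3, 6.38 and 4.59 for H2A, and 5.36 and 3.31 for H2B. The ranges overlap, since the lowest H4 genes stand below the median of every other type. In 9 of the 56 open genes the highest peaks of the replicates did not overlap, so that the mean and SD combine 2 sites: Hist1h2ae, Hist1h2bg, Hist1h2be, Hist1h2bh, Hist1h3c, Hist2h2ab, Hist2h2ac, Hist2h2be and Hist3h2ba. Genes that share a peak are not independent points: in replicate 1, 24 genes took their score from 12 peaks that each served 2 genes or more.

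The clusters were open to similar shares. In Hist1, 45 of 54 genes were open, 19 of 23 in the first block (chr13:21715763-22043676) and 26 of 31 in the second (chr13:23531050-23934851). The blocks were divided at gaps of over 200000 bp between neighbouring histone genes. Hist2 (chr3:96219865-96270132, 50.3 kb) had 8 of 10 open, Hist3 had 2 of 2 and Hist4 had 1 of 1. The 8 open Hist2 genes had mean scores from 6.81 to 9.62, and the median of 7.57 stood above the 4.67 of the first and the 6.27 of the second Hist1 block. Some of these scores come from a neighbour's peak, and those of Hist2h2aa1 and Hist2h2aa2 may include reads from the other copy. Counted at the start codon, Hist2 scores ran from 4.71 to 9.62 with a median of 6.88. The medians of the Hist1 blocks were then 4.67 and 5.99. H4 scores also differed between the blocks: the median was 4.65 over 5 genes in the first and 12.8 over 6 genes in the second, and the first block holds the duplicated Hist1h4m and Hist1h4n.

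Between the first and the last Hist1 gene lie 49 other protein-coding genes, of which 7 were open, against the 59.0% of all genes. These were Zfp322a (12.9 and 8.37), Zfp184 (9.73 and 5.55), Abt1 (7.48 and 5.31), Hfe, the gene of hereditary haemochromatosis (4.51 and 2.77), Prss16, a thymus serine protease (3.43 and 3.07), Btn1a1 (1.52 and 0.887) and Btn2a2 (1.07 and 1.17). None of the 36 vomeronasal receptor genes (Vmn) among them had a strict peak in both replicates, and the 4 Slc17a transporter genes, Pom121l2 and Trim38 had none either. Among the Vmn genes the share of unique 36-base words within 250 bp of the TSS ran from 0% in Vmn1r208 to 100%, as in Vmn1r196. Where it is low, a closed and an unmapped promoter cannot be told apart. In Hist2 no other protein-coding gene lies between the members.

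Of the 18 H2A and 18 H2B genes, 12 of each stood head to head, in 12 pairs with 278 to 334 bp (median 299) between the start codons. In 9 of the 12 pairs a strict peak overlapped the stretch between the codons in both replicates, and the highest of such peaks gave the score of the pair. The highest pairs were Hist2h2ac/Hist2h2be, with 7.59 and 6.17 (6.88 ± 1.01), Hist1h2bf/Hist1h2ad, with 8.08 and 5.62 (6.85 ± 1.74), and Hist1h2ag/Hist1h2bj, with 6.38 and 5.50 (5.94 ± 0.621). The lowest open pair was Hist1h2ak/Hist1h2bn, with 3.72 and 3.23 (3.47 ± 0.347). The 3 pairs without a peak were Hist1h2ba/Hist1h2aa, Hist1h2bq/Hist1h2ao and Hist1h2ap/Hist1h2br. Strict peaks covered a median of 86.8% of the stretch between the codons in replicate 1 and 93.9% in replicate 2 over the open pairs. In Hist2h2ac/Hist2h2be they covered 31.5% and 54.8%, and the peaks that gave its score did not overlap between replicates.

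The 11 genes without a strict peak in both replicates fell into 4 kinds. The first kind is sequence that occurs more than once in the genome. The segment with Hist1h2bq, Hist1h2ao, Hist1h2ap and Hist1h2br, chr13:21806612-21837530, had no 36-base word within 250 bp of their TSSs that occurs once, and neither replicate listed any base under a false discovery rate of 0.05 within 1000 bp. Hist2h3c1 and Hist2h3c2, with 16.7% such words before the start codon, share 89.0% of the words within 250 bp of their TSSs with each other. Hist2h3c1 had no peak and no listed base. Hist2h3c2 had a strict peak of 1.70 in replicate 1 alone and 1.07 in the looser list of replicate 2. Reads that fit several places are often left out in alignment, the aligner's rule is not given in the sources used here, and a closed promoter and an unmapped one cannot be told apart in these genes. Low uniqueness did not always go with a missing peak: of the 10 genes under 20%, 4 were open, Hist1h4m, Hist1h4n, Hist2h2aa1 and Hist2h2aa2. The scores of these 4 genes may miss reads or include reads from a copy, so their ranks are uncertain.

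The second kind is the testis-linked genes. Hist1h1t, the H1 of spermatocytes, Hist1h2ba, the testis H2B, and Hist1h2aa, the testis H2A, had no strict peak in either replicate, while all 36-base words of the 250 bases before their start codons were unique. Hist1h2ba and Hist1h2aa had no base listed under 0.05 within 1000 bp in either replicate. Hist1h1t had a lowest false discovery rate of 0.00442 in replicate 1 and 0.0412 in replicate 2, and a peak of 0.793 in the looser list of replicate 1 alone. Of the 55 genes with at least 80% unique words before the start codon, 50 were open and 5 were not, and these 3 were among the 5.

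The third kind is annotation, and the fourth is a strict peak in replicate 1 alone where the sequence before the start codon is unique. Hist1h1d had no peak at its annotated TSS, which lies 1828 bp from its start codon, but had 9.71 in replicate 1 and 5.31 in replicate 2 at the start codon. Those values are within the range of the open H1 genes. Hist1h3d had a strict peak of 2.22 in replicate 1 and only a looser one of 1.31 in replicate 2, with a lowest false discovery rate of 2.25e-11 and 0.00214. With the window set on the start codon, 57 of 67 genes were open, against 33.7% of all protein-coding genes with an annotated start codon. The share of all protein-coding genes was 59.0% with the window on the TSS, so the wider gap goes with the change of window. The distance from TSS to start codon was not compared between histone genes and all genes.

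The deposited track of false discovery rates, made from the same reads, also placed H4 highest. At each base around the start codon the median of −log10 of the rate was taken over the genes of a type, with unlisted bases at 0. It was highest for H4, at 57.6 in replicate 1 and 49.5 in replicate 2, in 10 bp steps centred 55 and 65 bp before the start codon. H1 followed with 52.5 and 36.2, both centred 35 bp before the codon. H3 reached 22.2 and 19.3, H2A 22.5 and 18.8, and H2B 24.02 and 14.9. These values rise with depth as well as with the contrast of cutting, so they were compared within a replicate only. For H2A and H2B the profiles were wider: bases above 50% of the top made up 490 and 500 bp in replicate 1, against 310 bp for H1, 290 bp for H4 and 220 bp for H3.

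**Figure D3:**
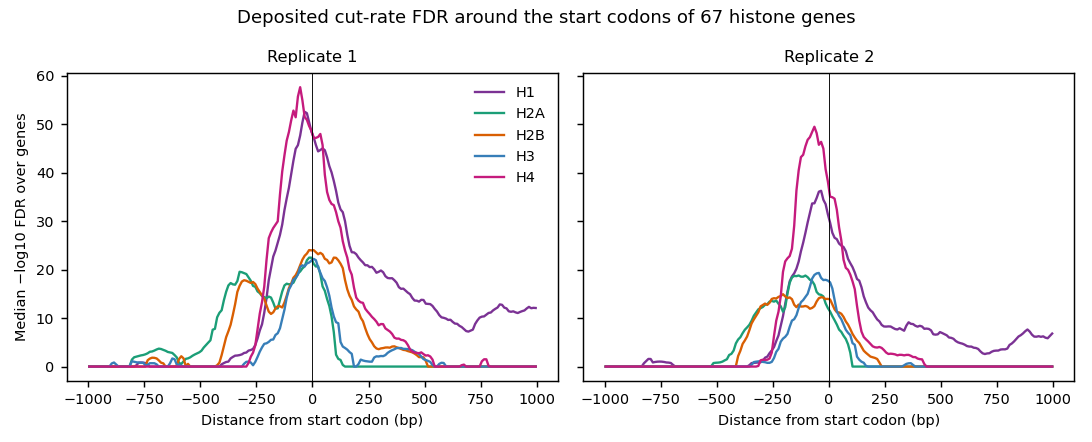
Median −log10 of the deposited false discovery rate (y axis) over the genes of each histone type by distance from the start codon (x axis, bp, negative before the codon), in 10 bp steps, replicate 1 left and replicate 2 right. H4 and H1 have the highest tops, just before the codon, while H2A and H2B have broad profiles that extend further upstream.

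Footprints, short stretches protected from cutting within accessible DNA, were present in the promoter peak of all 56 open genes in both replicates, against 99.0% of open protein-coding genes, so their presence does not set these genes apart. From 300 bp before to 100 bp after the start codon, the open genes had 323 footprints in replicate 1 and 315 in replicate 2. Of these, 69.3% and 68.6% overlapped a footprint of the other replicate by at least 1 bp. The share was 81.4% and 79.2% in H4 genes and 60.5% in both replicates in H3 genes.

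The H4 genes had a footprint in the same place. At 5 positions between 73 and 66 bp before the start codon, 11 of the 13 genes had the base in a footprint of both replicates. No position reached more than 7 of 18 genes in H2A and in H2B, 5 of 12 in H3 or 3 of 6 in H1. The site II word GGTCCG was found in 12 of 13 H4 promoters (92.3%, 95% Wilson interval 66.7 to 98.6%) in a window from 200 bp before to 50 bp after the TSS, against 8.91% of all protein-coding promoters in the same window. Hist1h4a was the gene without it.

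**Figure D4:**
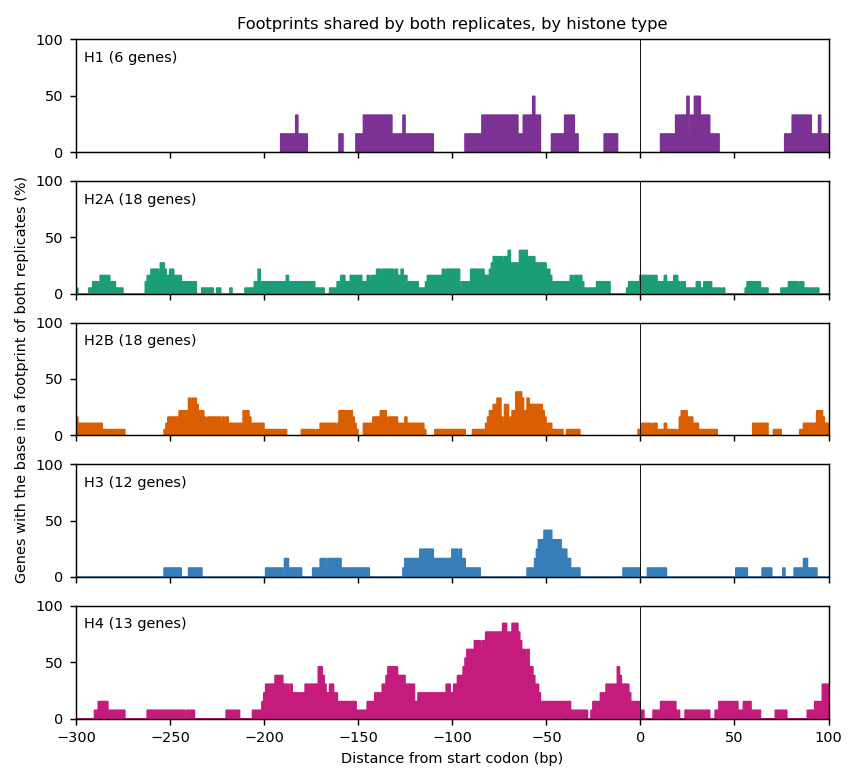
Share of genes (y axis, %) whose base at each distance from the start codon (x axis, bp, negative before the codon) lay in a footprint of both replicates, by histone type. The H4 panel has 1 tall peak between 73 and 66 bp before the codon that reaches 84.6% of genes, and no other panel exceeds 50%.

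The word lay 55 to 85 bp before the start codon of the 12 H4 genes, always in the same direction. In 12 of 12 it overlapped a footprint in both replicates. Over all open protein-coding promoters that hold the word, 23.9% (390 of 1632) did so. The footprints were 27 to 51 bp wide in replicate 1, where they covered the whole word in 12 of 12 genes, and 14 to 50 bp wide in replicate 2, where they covered it in 10. In Hist1h4c the footprint reached from 74 to 29 bp before the codon in replicate 1 and from 73 to 29 in replicate 2. In Hist1h4n, the lowest H4 gene, it reached from 102 to 58 bp and from 84 to 58 bp. The 30 bases shown for Hist1h4n are also those of Hist1h4i and Hist1h4m, and the H4 genes are copies of 1 family, so the 12 matches are not independent. Outside H4 the word occurred in 3 histone promoters, Hist1h2bh, Hist1h3f and Hist1h3i, in none of which it lay in a footprint.

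Other words were also more frequent in the histone promoters than in promoters at large. CCAAT was found in 18 of 18 H2A, 18 of 18 H2B, 11 of 12 H3 and 5 of 6 H1 promoters, and in 4 of 13 H4 promoters (30.8%), close to the 31.9% of all protein-coding promoters. The octamer was found in 8 of 18 H2B and 6 of 18 H2A promoters and in none of the others, against 1.40% of all. The AC box was found in 4 of 6 H1 promoters, against 5.47%. TATAAA was found in 12 of 18 H2A, 7 of 13 H4, 4 of 6 H1, 4 of 12 H3 and 4 of 18 H2B promoters, against 11.4%.

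In the 12 head-to-head stretches, which count for both an H2A and an H2B gene, CCAAT occurred 41 times, from 2 to 5 times in each. The octamer occurred in 5 of the 12, 4 times nearer the H2B codon and 1 time, in the testis-linked pair, nearer the H2A codon. TATAAA occurred 9 times in 8 stretches, 7 times nearer the H2A codon and 2 times nearer the H2B codon. The stretch of Hist2h2be/Hist2h2ac printed above shows that arrangement, with the octamer toward the H2B gene and the TATA word toward the H2A gene. The closed pairs in the duplicated segment hold CCAAT words but neither an octamer nor TATAAA, and the same holds for 2 open pairs, Hist1h2ag/Hist1h2bj and Hist1h2bl/Hist1h2ai.

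The words differed in how often a footprint lay over them. Open genes were compared with open genes, and a match in a head-to-head stretch can count for both of its genes. Of 27 open histone promoters with TATAAA, 16 (59.3%) had a match in a footprint of both replicates, against 12.9% of the 815 open protein-coding promoters with the word. For CCAAT it was 19 of 46 (41.3%), against 28.8% of 4035. For the octamer it was 1 of 12, Hist3h2a, against 11.8% of 144. For the AC box it was 1 of 7, against 6.56% of 503. A footprint over a word does not identify the protein, and a word without a footprint says nothing of binding.

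Some words of general promoters were rare and others were not. The ETS word CCGGAAG and the NRF1 word GCGCNTGCG each occurred in 1 of 67 promoters, both H1, against 9.43% and 6.62% of all promoters, and the E-box CACGTG in 0 of 67, against 6.05%. The SP/KLF word GGGCGG was found in 30 (44.8%, against 39.0%), most often in H4 (10 of 13). The E2F word TTTNNCGC was found in 15 (22.4%, against 4.98%), 8 of them H2A. The cyclic AMP response word TGACGTCA was found in 4, against 1.92% of all. In each of the 4 a match lay in a footprint of both replicates, and the share over other promoters with the word is not given here. A word in a head-to-head stretch can count for both of its genes, so these are not counts of separate sites. The GC content of the promoter window had a median of 42.8% in H3, 45.4% in H2A and in H2B, 49.6% in H4 and 52.2% in H1, each below the 56% of all promoters.

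The coding parts are repeated far more than the promoters. Within 250 bp of the TSS, 22 of the 67 genes had at least 80% unique words, against 87.4% of all protein-coding genes. Over the 67 genes, a median of 100% of 36-base words in the 250 bases before the start codon occurred once in the genome, but 22.3% in the 250 bases after it, 4.88% in H3 and 10.2% in H2A. Values downstream of the start codon therefore rest on fewer uniquely placed reads, if such reads were required. In open genes the strict peaks covered a median of 34.5% of the coding sequence in replicate 1 and 16.5% in replicate 2.

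The histone stem-loop, searched by its consensus in the 200 bases after the stop codon, was found in 62 of 67 genes, 24 to 61 bases after the stop. The site is shown because it marks these messages as replication-dependent, with the loop in capitals. The commonest form, in 38 genes of H1, H2A, H2B and H3, and the commonest H4 form, in 8 genes, were these.
H1, H2A, H2B and H3: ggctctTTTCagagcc
H4: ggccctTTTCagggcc
The 5 genes without a match were Hist1h2an, Hist1h2bp, Hist1h2bq, Hist1h2br and Hist2h2be. Of these 5, Hist1h2an, Hist1h2bp and Hist2h2be were open. For each gene only the bases after the stop of its longest annotated coding sequence were searched. In Hist1h2bp, Hist1h2bq and Hist1h2br that sequence has 2 coding exons. The missing match in those genes may rest on this choice of transcript, and other stops were not searched. The stem-loop lay in a strict peak of both replicates in 7 of the 62 genes.

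Other genes of histone supply were all open. Of 36 genes listed for the transcription of histone genes, the processing and decay of their messages and the handling of histones by chaperones, 36 had a strict peak in both replicates, with a median score of 10.99, against 59.0% of all protein-coding genes open and a median of 6.83 over those. The highest were Nfya, a CCAAT-binding subunit, with 25.96 and 18.1 (22.0 ± 5.55), Ccne1, cyclin E1, with 23.2 and 18.5 (20.8 ± 3.31), and Casp8ap2 (FLASH), of the histone locus body, with 23.5 and 14.8 (19.2 ± 6.21). Hinfp, the factor of site II, had 16.7 and 9.41 (13.04 ± 5.13), Npat, the coactivator of histone genes, 19.6 and 12.6 (16.1 ± 4.95), and Slbp, which binds the stem-loop, 12.9 and 7.11 (10.0 ± 4.12).

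The replication-independent somatic variants, which are made outside S phase as well, were open in 11 of 11 genes, against 59.0% of all protein-coding genes, with a median of 9.11. H2afj had 17.8 and 14.2 (16.01 ± 2.53), H2afz, the gene of H2A.Z, 17.7 and 13.5 (15.6 ± 2.99), and H2afv 18.4 and 12.4 (15.4 ± 4.22). The lowest was H2afy2, with 0.496 and 0.389. None of the 7 germ line variants had a peak: H1foo, H1fnt, Hils1, H2afb1, H2afb2, H2afb3 and H2al2a were at 0 in both replicates. Within 250 bp of the TSS, the share of unique 36-base words was 50.6% in H2afb1, 78.3% in H2afb2 and 36.7% in H2afb3, so that a closed and an unmapped promoter cannot be told apart there. It was 83.0% in H2al2a and 100% in the other 3. Of the 8 male germ cell markers, Dazl (5.73 and 5.03) and Prm1 (4.64 and 2.81) had one and the other 6 had none.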

How the data were processed

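DNase-seq of thymus had 2 replicates in 1 group. The authors deposited, per replicate, a strict and a looser peak list with a signal value per peak, a track of false discovery rates (a q-value, that is, a p-value adjusted over positions) listing only stretches under 0.05, and footprints with the constant value 0.01, all on mm10 per the deposited file descriptions. For the aligner, callers and depth the sources used here give no name or value. Overlapping entries of a list were joined with the highest score (62230 and 66839 peaks left). Genes, TSSs and start codons came from GENCODE M21 and sequence from GRCm38.p6. Means and SDs cover n = 2, and intervals cover counting error only. Uniqueness was the share of 36-base words found once in the genome on either strand. The main motif window was 200 bp before to 50 bp after the TSS nearest the start codon, and in the histone promoters 5 pairs of matches to different words overlapped. Median log2 scores used log2(mean + 1).

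The genes, lists and words were chosen with earlier results of these data known, and no test was run across genes. The genes named were all of Hist2, Hist3 and Hist4, the 2 highest and 2 lowest per type in Hist1, every gene not open, the 5 with the largest log2 difference between replicates, the testis-linked genes, the 3 highest and 3 lowest pairs, and from the other lists the 3 highest and those without a peak. Other names (Hist1h1a, Hist1h1e, Hinfp, Npat, Slbp and the genes between the clusters' members) were added after their values were seen. Peak assignment and word search were tested on simulated data. Python 3.11.15, NumPy 2.4.6, SciPy 1.17.1, pysam 0.24.0 and matplotlib 3.10.9 were used.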

Additional observations from a re-analysis of the deposited data

How the results depend on the processing

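Over 19 values, 176 alternatives were computed, and 160 kept within 1.5 times the count, the spread between replicates or the Wilson interval of the value reported. The number of open genes was 56, and 56 to 58 with 1 replicate left out. With a window of 100 bp Hist1h3f and Hist2h2aa1 were lost, with the looser list Hist1h3d and Hist2h3c2 were gained, and with 2500 bp 9 of the 11 were gained, all but Hist1h2aa and Hist1h2ba. At 2500 bp the windows of Hist1h2bq and Hist1h2ao reach the peak at Hist1h4m, and those of Hist1h2ap and Hist1h2br the peak at Hist1h4n. That of Hist2h3c1 reaches the peak scored for Hist2h2aa1, so these gains can rest on a neighbour's peak. The median log2 score of 2.65 fell to 2.33 when a peak counted only for the nearest TSS, which leaves 7 H2A and H2B genes without one, and was 2.17 with scores divided by the replicate's median peak score, which changes the scale. With only genes at least 80% unique within 250 bp of the TSS, fewer genes could count: 18 of 22 were open, with 3 of 4 in H2A, 5 of 6 in H2B, 2 of 2 in H3, 4 of 4 in H4, 1 of 1 and 11 of 15 in the blocks of Hist1, 4 of 4 in Hist2 and 1 of 1 in Hist3. The share of H2B promoters with TATAAA, 22.2%, was 61.1% in a window from 500 bp before the TSS and 55.6% in the 300 bp before the start codon, which take in the H2A side of the shared stretch. That of H3 promoters with CCAAT was 100% in both. The share of H1 promoters with the AC box, 66.7%, was 0% in the 100 bp before the TSS and 83.3% in the 300 bp before the start codon. The window on the start codon, the limits of 20% uniqueness and of 80% before the start codon, and the word search there were chosen after seeing the data. No paired analysis was possible because the series has 1 group. Depth was not stated, so a missing peak is not shown to be absence of cutting.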

Other observations

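Annotated pseudogenes of the same families also had strict peaks within 1000 bp of their start: Hist3h2bb-ps had 6.36 in replicate 1 and 4.75 in replicate 2, Hist1h2aj 3.99 and 2.16, and Hist1h2al, away from the clusters on chromosome 13, 2.21 and 1.501. The peak of Hist3h2bb-ps is the one scored for Hist3h2a, and that of Hist1h2aj the one scored for Hist1h2bm, by equal scores in both replicates.

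The number of genes behind 1 protein differed by type. The longest coding sequence annotated from the start codon used here was taken for each gene. By that count the 13 H4 genes encode 1 protein and the 12 H3 genes 3, while the 18 H2A genes encode 9, the 18 H2B genes 12 and the 6 H1 genes 6. Of the H3 proteins, 1 is the 181 residues annotated for Hist2h3c1 alone. Hist1h2bp (138 residues) and Hist1h2bq and Hist1h2br (134 residues) were counted by coding sequences of 2 exons. The largest H2A set, 9 genes for the same 130 residues, had 7 open genes with mean scores from 2.89 to 6.85. The largest H3 set, 7 genes, had 5 open, from 3.90 to 7.74, and the second, 4 genes, had 4 open.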
